A study of Mus musculus with 12 samples.

Results

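Genes of T cells and natural killer cells were followed across subcutaneous allografts of YUMM2.1, a mouse melanoma line, in C57BL/6J mice, which have an intact immune system. The set holds 44 genes of the 22195 to which reads were summed, and they were listed by known function, in 9 roles from the T cell receptor to the cytotoxic granule. Treatment was with isotype control IgG (not directed at either target), anti-B7-H3 (against the checkpoint protein encoded by Cd276), anti-PD1 (against the inhibitory T cell surface protein encoded by Pdcd1) or both of these antibodies together, from the time tumours measured 20 to 50 mm3. Each of the 4 groups has 3 libraries of ribosome-depleted whole-tumour RNA, and the tumour line and mouse strain are shared by all groups. The study set out to describe the immune cells within these tumours. The labels do not say whether the libraries of a group came from separate mice, so p-values measure only the spread between these libraries.

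T cells recognise antigen through a receptor of alpha and beta chains that signals through the CD3 proteins, the kinases Lck and Zap70 and the adaptor Lat. CD4 and CD8 coreceptors divide helper from cytotoxic T cells, and checkpoint receptors such as PD1, CTLA4 and LAG3 restrain activated T cells. Natural killer cells carry no rearranged antigen receptor and use receptors such as NKp46 (Ncr1) and NKG2D (Klrk1). Both kinds of cell kill with perforin and granzymes. In bulk RNA, fewer cells of a type and less RNA per cell cannot be told apart.

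The libraries differed in ways that touch every value below. The satellite-like genes, 14 in number, held 93.5% ± 1.71 (SD, n = 3) of all reads with isotype control, 73.3% ± 2.84 with anti-PD1, 31.9% ± 2.22 with both antibodies and 0.297% ± 0.078 with anti-B7-H3. These genes were picked by read share alone, as those with a mean of at least 0.4% of reads in isotype control libraries. That choice favours a high share in isotype control. The other reads numbered 1156000 to 1322000, 2411000 to 2672000, 2881000 to 3466000 and 3564000 to 3913000 per library in these groups. Olfactory receptor (Olfr) genes, which act in the nose and of which 1189 were used, had 6.86 ± 0.310, 5.20 ± 0.250, 0.649 ± 0.0420 and 0.0559 ± 0.00516 reads per kb of coding length. These served as the expected background of each gene. The order of the groups by satellite share and by background is the reverse of their order by T and natural killer cell reads, and the part of either in the results was not tested.

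The upstream sequences of 4 members that the results turn on are shown with the letters of RUNX and ETS motifs, since factors of both families are known to act at T cell and cytotoxic genes. They are the 250 bases before each RefSeq start of the receptor subunit gene Cd3e, the kinase gene Lck and the granzyme genes Gzma and Gzmb, on build GRCm38.p6, with both RefSeq starts of Lck, written 5′ to 3′. Capitals mark TGTGGT (RUNX) or AGGAAGT (ETS) on either strand.
Cd3e, chr9:45009612-45009861, minus strand: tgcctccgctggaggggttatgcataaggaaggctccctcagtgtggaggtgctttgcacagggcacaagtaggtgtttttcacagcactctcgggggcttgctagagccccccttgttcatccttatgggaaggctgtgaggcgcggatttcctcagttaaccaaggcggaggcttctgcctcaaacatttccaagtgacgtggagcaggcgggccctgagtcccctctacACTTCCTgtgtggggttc
Lck, chr4:129573642-129573891, minus strand: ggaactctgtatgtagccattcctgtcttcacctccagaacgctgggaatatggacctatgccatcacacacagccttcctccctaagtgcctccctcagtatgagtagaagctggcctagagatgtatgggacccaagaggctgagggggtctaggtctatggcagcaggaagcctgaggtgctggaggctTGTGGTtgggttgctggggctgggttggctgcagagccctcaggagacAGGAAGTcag
Lck, second start, chr4:129558373-129558622, minus strand: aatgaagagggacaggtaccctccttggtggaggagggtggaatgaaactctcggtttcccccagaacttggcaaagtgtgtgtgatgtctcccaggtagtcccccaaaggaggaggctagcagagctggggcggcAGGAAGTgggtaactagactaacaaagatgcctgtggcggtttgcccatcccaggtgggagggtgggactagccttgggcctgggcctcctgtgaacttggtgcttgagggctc
Gzma, chr13:113100982-113101231, minus strand: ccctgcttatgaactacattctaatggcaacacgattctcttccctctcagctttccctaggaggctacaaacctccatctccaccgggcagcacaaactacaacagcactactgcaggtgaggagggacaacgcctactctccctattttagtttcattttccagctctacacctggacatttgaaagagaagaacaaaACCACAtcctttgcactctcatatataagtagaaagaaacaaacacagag
Gzmb, chr14:56262335-56262584, minus strand: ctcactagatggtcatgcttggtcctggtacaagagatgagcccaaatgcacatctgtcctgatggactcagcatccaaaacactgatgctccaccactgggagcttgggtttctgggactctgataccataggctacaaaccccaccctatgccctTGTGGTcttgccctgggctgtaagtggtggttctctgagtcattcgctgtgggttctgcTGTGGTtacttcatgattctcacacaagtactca
The start given for Gzmb was not found in a GENCODE transcript of the gene. Of 31 members with such a window, 13 (41.9%) held TGTGGT, against 15.9% of 27025 genes, and 11 (35.5%) held AGGAAGT, against 8.80%. The STAT letters TTCNNNGAA were in 6 (19.4%) against 8.13%, the NFAT letters TGGAAAA in 3 (9.68%) against 6.79%, the AP-1 letters TGANTCA in 2 (6.45%) against 7.82%, and the T-box letters GGTGTGA in 1 (3.23%) against 3.85%. These motifs can overlap each other, and a match is a description of letters only.

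Reads of the 44 genes stood far above background in anti-B7-H3 and combination tumours and near it in the other groups. Over 3 libraries, anti-B7-H3 tumours gave 5774 reads where background alone would give 7.53, and combination tumours 2386 where it would give 87.3. Anti-PD1 tumours gave 1195 reads against 700 expected, and isotype control tumours 953 against 924. A gene was taken to stand above background in a group where its reads per kb exceeded those of 99% of Olfr genes. All 44 members did so in anti-B7-H3 and in combination tumours, where 96.5% of the 13478 genes tested did. In anti-PD1 tumours 6 of 44 did (Il2rb, Tnfrsf18, Lag3, Havcr2, Klrb1c and Prf1), against 81.8% of genes tested. In isotype control tumours only Cd8b1 and Klrb1c did, against 50.1%.

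**Figure D1:**
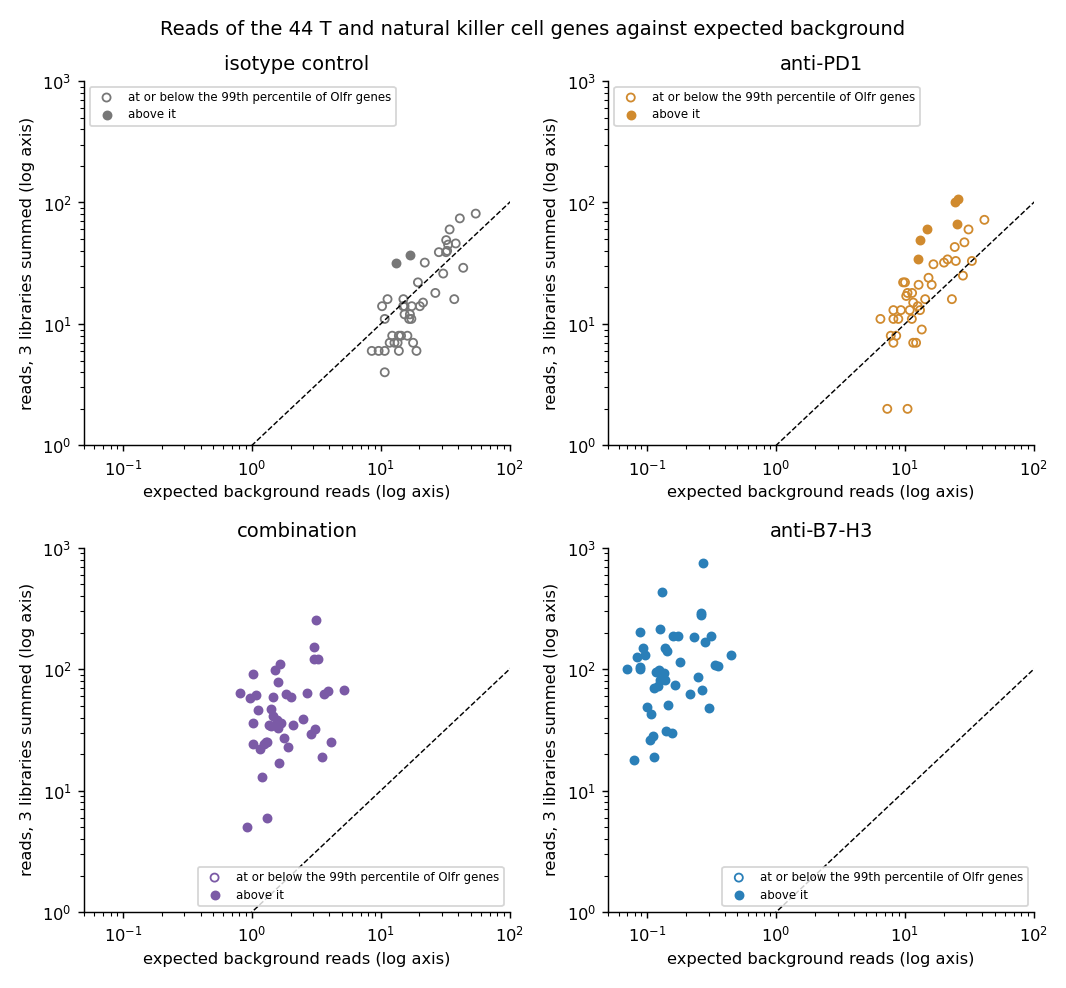
Reads of each of the 44 genes, summed over the 3 libraries of a group (vertical, log axis), against the reads expected from background (horizontal, log axis), with 1 panel a group and the dashed line at equality. All 44 points lie above the line in anti-B7-H3 and combination tumours, and filled points exceed 99% of Olfr genes.

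Reads in isotype control and anti-PD1 tumours were also fewer than their depth would give at the anti-B7-H3 level. At the mean level of anti-B7-H3 tumours and with their own background, anti-PD1 libraries would have held 4245 reads of the 44 genes and isotype control libraries 1910. Reads fell short of this number for 44 of 44 members in anti-PD1, for 44 of 44 in combination (5408 reads in all) and for 40 of 44 in isotype control tumours. The 4 exceptions in isotype control were Cd6, Bcl11b, Cd8b1 and Klrb1c. No such count was made over all genes. The reference is also the group where the summed level of these members was highest, so the counts describe these members only.

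A level is given here as reads beyond background per kb of coding length per 1000000 TMM-scaled reads, and a value below 0 means fewer reads than background predicts. Below 0, its size depends on the background and depth of the library. Genes at background in both groups of a comparison can therefore lie wholly above isotype control. Sums over genes leave out the division by length. The summed level of the 44 genes was 191, 185 and 190 in the 3 anti-B7-H3 libraries, 79.0, 85.2 and 80.3 with the combination, 29.2, 29.8 and 19.5 with anti-PD1 and 7.23, 21.2 and −10.7 with isotype control. The groups did not overlap except anti-PD1 with isotype control. The combination stood at 43.3% of the anti-B7-H3 mean. Isotype control values spread over a range that includes 0, so no ratio of summed levels to them is given.

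**Figure D2:**
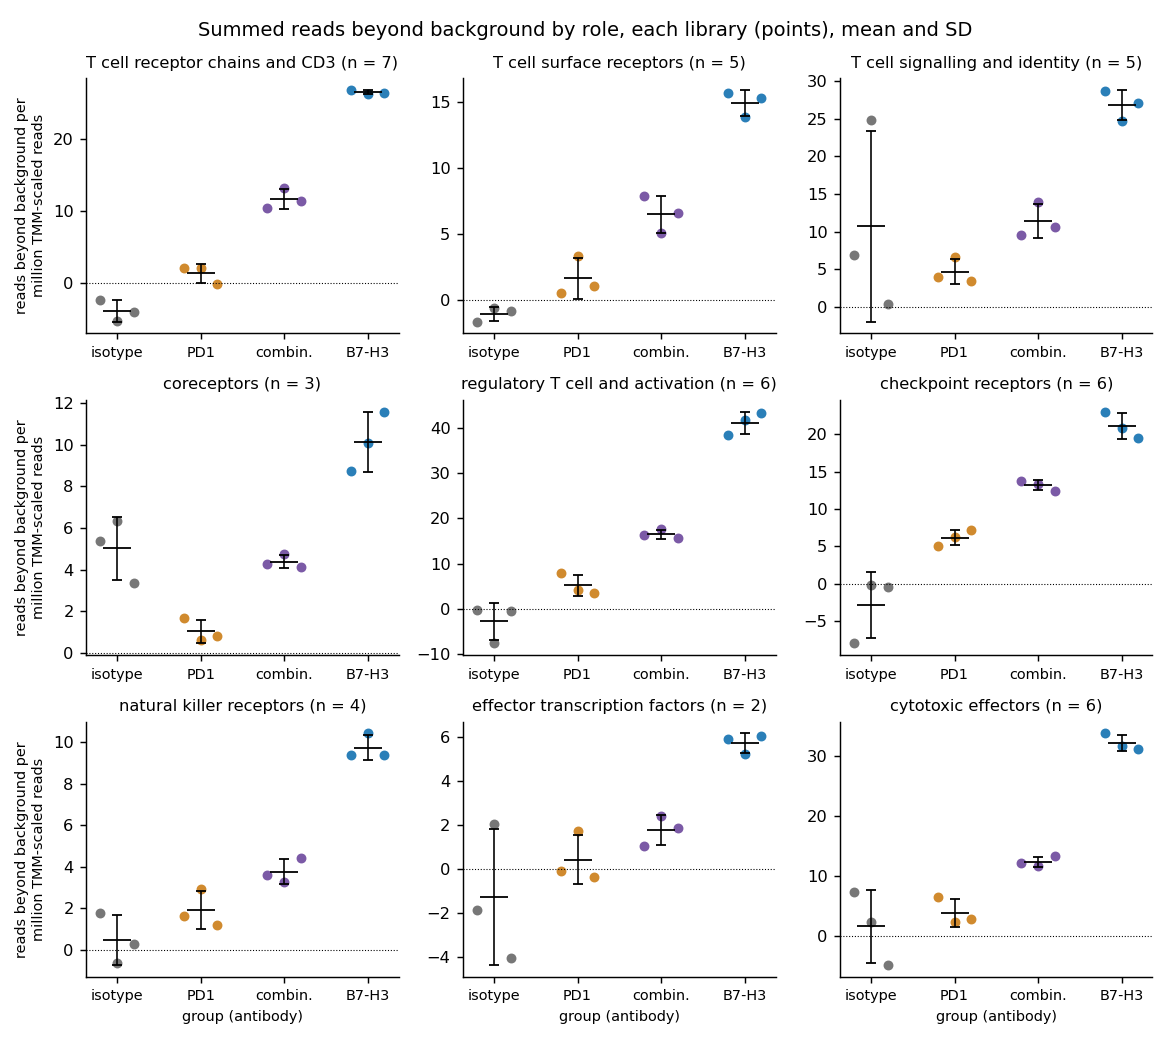
Summed reads beyond background per 1000000 TMM-scaled reads (vertical) for each of the 9 roles, by antibody group (horizontal); points are libraries, bars the mean and SD of 3. In every panel the 3 anti-B7-H3 points lie above the 3 combination points.

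In the T cell receptor and CD3 role, the summed level was 26.6 ± 0.295 (SD, n = 3) with anti-B7-H3, 11.7 ± 1.45 with the combination, 1.29 ± 1.28 with anti-PD1 and −3.91 ± 1.51 with isotype control. Trbc2, a constant gene of the beta chain, had levels of 13.4, 11.9 and 12.7 with anti-B7-H3 and 6.12, 6.84 and 5.61 with the combination, from 203 and 92 reads. Trac, the constant gene of the alpha chain, had 6.75, 8.06 and 9.09 against 4.92, 5.51 and 5.75. Neither gene overlapped between these groups. Reads of Trbc1 and Trbc2 are uncertain between the pair, since 45.4% of the 31-base windows of Trbc1 also occur in Trbc2. Cd3e, a signalling subunit of the receptor complex, had 8.33, 7.89 and 6.43 with anti-B7-H3 and 2.22, 3.78 and 2.47 with the combination. Its levels were −0.486, 0.816 and 0.315 with anti-PD1 and −0.948, −2.15 and −1.88 with isotype control, on 11 and 7 reads. Variable segments of the receptor loci added 267 reads in anti-B7-H3 tumours against 7.38 expected from background, spread over 76 of 128 segments, with 26 on Trbv2. Combination tumours had 171 against 85.6, while anti-PD1 (456 against 686) and isotype control tumours (707 against 906) had fewer than background predicts.

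Surface receptors summed to 15.0 ± 0.977 with anti-B7-H3 and 6.5 ± 1.42 with the combination, and signalling genes to 26.8 ± 1.98 and 11.4 ± 2.25. The signalling sum of isotype control libraries ran from 0.397 to 24.8 and overlapped that of the combination and, in 1 library, of anti-B7-H3. Cd2, an adhesion receptor, had levels of 5.22, 6.52 and 6.22 with anti-B7-H3 and 1.82, 2.05 and 1.98 with the combination. Lck had 6.19, 5.69 and 6.40 against 2.92, 2.89 and 2.28. Both genes were separated between these groups. Cd28, the main costimulatory receptor, was listed at 0 in at least 1 library of every group while its other libraries held up to 17 reads, so no comparison is drawn from it. Among coreceptors, Cd4 had 4.0, 4.24 and 4.97 with anti-B7-H3 and 1.91, 1.61 and 1.27 with the combination. Cd8a had 2.50, 3.80 and 4.52 against 1.83, 2.26 and 1.62, the highest combination library lying under the lowest anti-B7-H3 library. Cd8b1 in isotype control libraries had levels of 2.54, 11.2 and 4.4, on 32 reads where 13.2 were expected, and was the only member whose 3 isotype control levels all exceeded those of anti-B7-H3 tumours.

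Regulatory T cell and activation genes summed to 41.2 ± 2.44 with anti-B7-H3 and 16.5 ± 1.0 with the combination. Il2rb, a chain of the interleukin-2 and interleukin-15 receptors of T and natural killer cells, was the second highest member in anti-B7-H3 tumours at 13.6, 16.1 and 15.7, against 5.70, 5.99 and 4.81 with the combination and 1.57, 1.81 and 0.587 with anti-PD1. Foxp3, which defines regulatory T cells, had 1.51, 1.5 and 1.68 with anti-B7-H3 and 0.773, 1.18 and 1.05 with the combination, on 62 and 39 reads. Tnfrsf18, the costimulatory receptor GITR, had 6.80, 5.19 and 7.44 with anti-B7-H3. Its levels of 2.23, 2.37 and 2.28 with the combination overlapped those with anti-PD1 (3.55, 1.85 and 2.15).

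Checkpoint receptors kept the largest share with the combination, 62.4% of the anti-B7-H3 sum, where the other roles kept 31.1% to 43.9%. Whether roles differ in this share was not tested. Havcr2, which encodes TIM-3 and is also found on myeloid cells, had levels of 6.05, 4.48 and 5.85 with anti-B7-H3 and 4.81, 4.30 and 4.49 with the combination. Pdcd1 had 1.93, 2.12 and 1.75 against 0.808, 1.53 and 1.82, on 51 and 36 reads. Both genes overlapped between these groups, as did Btla. Lag3 did not, at 6.32, 5.81 and 5.48 against 3.96, 3.17 and 2.95, and Ctla4 did not, at 4.15, 2.73 and 3.24 against 0.904, 1.22 and 1.51.

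Natural killer receptors summed to 9.73 ± 0.591 with anti-B7-H3 and 3.75 ± 0.602 with the combination, and cytotoxic genes to 32.1 ± 1.37 and 12.3 ± 0.827. Ncr1 had levels of 2.18, 2.71 and 2.53 with anti-B7-H3 and 0.931, 0.756 and 0.623 with the combination. Gzma, a granzyme of T and natural killer cells, was the highest member in anti-B7-H3 tumours at 19.7, 18.1 and 15.8, on 429 reads. Its levels were 4.23, 3.17 and 5.47 with the combination, −0.174, −0.472 and −0.432 with anti-PD1 and −0.404, −1.94 and −3.97 with isotype control. Gzmb had 8.26, 8.79 and 11.2 against 2.59, 2.72 and 2.91 with the combination. Neither granzyme overlapped between those groups. Prf1, which encodes the pore-forming protein perforin, had means of 3.27 ± 0.447 with anti-B7-H3, 2.52 ± 0.0983 with the combination, 2.51 ± 1.11 with anti-PD1 and 2.96 ± 0.737 with isotype control. Ifng, the interferon gamma gene, had 18, 5, 2 and 6 reads in the same order and did not pass the filter on low counts.

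**Figure D3:**
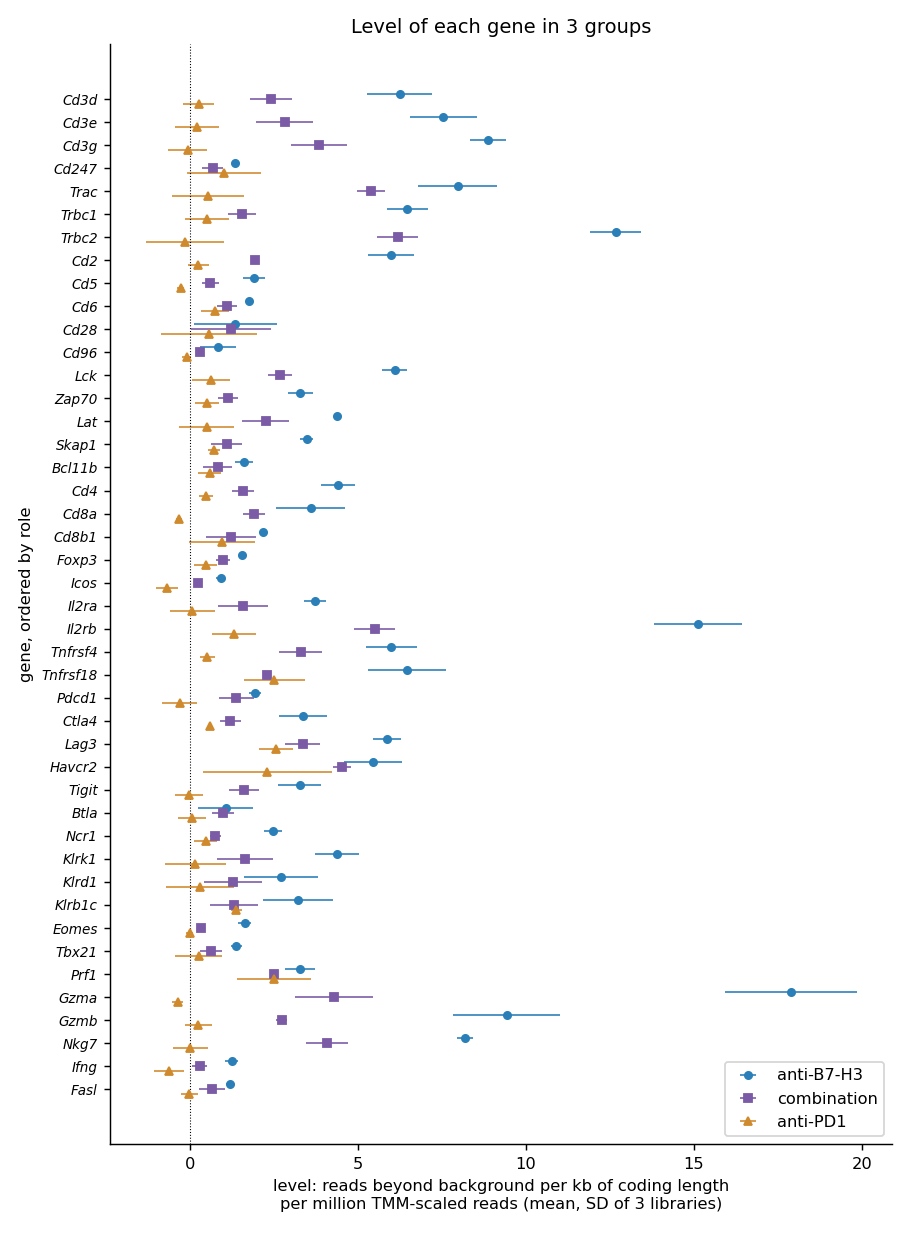
Level of each of the 44 genes (horizontal, mean and SD of 3 libraries; dotted line at 0) in anti-B7-H3, combination and anti-PD1 tumours, with genes ordered by role; isotype control levels, whose spread is wider, are left out. Gzma, Il2rb and Trbc2 have the highest anti-B7-H3 levels.

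The combination was compared with anti-B7-H3 alone, which asks what adding anti-PD1 changed, in the pair of groups with the least background. T and natural killer cell genes were lower with both antibodies. By edgeR's quasi-likelihood test with Benjamini-Hochberg adjustment over all genes, 28 of 43 members tested fell and 0 rose, where 19.1% of all genes fell and 19.8% rose. The median log2 fold change was −1.07 over members and 0.01 over all genes. With background subtracted from the counts, 20 of 42 fell and 0 rose, where 14.8% fell and 15.0% rose. Levels of 38 of 44 members lay wholly below those with anti-B7-H3, where 32.9% of all genes did.

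Members of every role fell. In the receptor role 5 of 7 did, among them Trbc1 (log2 fold change −1.89, SE 0.364, adjusted p = 1.55e-05), Cd3e (−1.31, SE 0.297, 0.000216), Cd3d (−1.26), Cd3g (−1.09) and Trbc2 (−0.94). Trac (−0.46, adjusted p = 0.219) did not pass. All 5 signalling genes fell, Lck by 1.07 on the log2 scale, and 3 of 5 surface genes fell, Cd2 by 1.48. With background subtracted 3 of 5 signalling and 2 of 5 surface genes did. Of the coreceptors only Cd4 fell (−1.32, SE 0.227, adjusted p = 1.55e-06). Cd8a (−0.80, adjusted p = 0.0534) lay at the threshold and passed it without isotype control replicate 1 (0.0489) or anti-B7-H3 replicate 1 (−0.99, 0.0393). Gzma (−1.93, SE 0.180, adjusted p = 1.14e-14), Gzmb (−1.65) and Nkg7 (−0.90), a granule protein gene, fell, while Prf1 (−0.25, adjusted p = 0.329) did not pass.

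Il2rb (−1.36, SE 0.122, adjusted p = 1.83e-15) and Tnfrsf18 (−1.37) also fell. Tnfrsf4, the costimulatory receptor OX40, fell (−0.74, adjusted p = 0.00856) but did not pass without anti-B7-H3 replicate 2 (0.0558) or 3 (0.0531). Of 6 checkpoint receptors, Lag3 (−0.70), Ctla4 (−1.27) and Tigit fell. Ctla4 missed the threshold when anti-B7-H3 replicate 1 (adjusted p = 0.0713) or combination replicate 1 (0.0501) was left out. Pdcd1 (−0.31, SE 0.388, adjusted p = 0.575) and Havcr2 (−0.17, SE 0.241, adjusted p = 0.627) did not pass, and neither did Foxp3 (−0.47, adjusted p = 0.294). Ncr1 (−1.47), Klrk1 (−1.23) and the T-box factor gene Eomes (−1.88, adjusted p = 7.23e-06) fell, Klrk1 not passing without combination replicate 2 (0.0566). With background subtracted, 8 of the 28 genes did not pass: Klrk1 (adjusted p = 0.0743), Tnfrsf4 (0.0562), Nkg7 (0.0587), Il2ra (0.0635), Cd96 (0.118), Lat (0.178), Tigit (0.196) and Bcl11b (0.224).

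**Figure D4:**
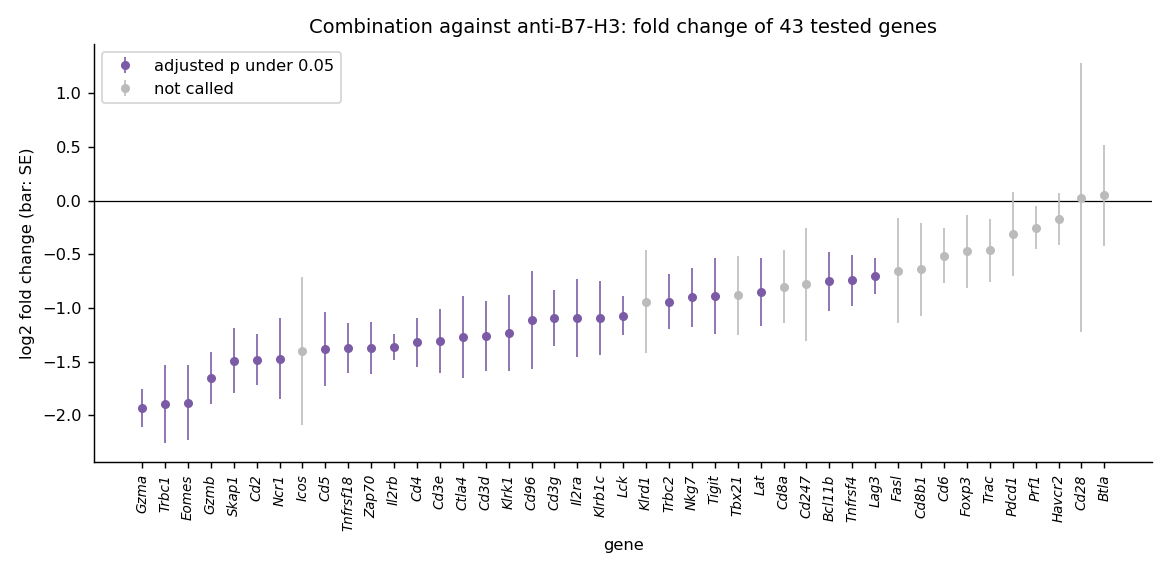
Log2 fold change of the 43 tested genes (vertical, bars are SE) between combination and anti-B7-H3 tumours, ordered by size. Of these, 28 pass an adjusted p of 0.05, all below 0, and Btla and Cd28 are the genes above 0.

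Other genes of the same pathways gave these counts in that comparison, to be read beside the 19.1% of all genes that fell on the deposited counts and the 14.8% that fell with background subtracted. Of 18 tested T cell receptor signalling genes outside the 44, 11 fell and 0 rose, among them the adaptor gene Sh2d2a (−1.21), and 8 fell with background subtracted. Of 18 differentiation and homing genes 11 fell and 0 rose, among them the transcription factor gene Ikzf3 (−1.77), and 6 fell with background subtracted. Of 4 gamma delta T cell genes tested 1 fell and 0 rose, and with background subtracted 0 of 3 were called. Of 12 other natural killer receptor genes 5 fell, among them Klrc1 (−1.96), and 1 rose, but with background subtracted 1 fell and 0 rose. Of 13 other effector genes 5 fell, including the chemokine gene Ccl5 (−1.76), and with background subtracted 4 of 11 fell. Of 13 cytokine and chemokine genes 3 fell, including Cxcl9 (−1.43), and with background subtracted 3 of 12 fell. Ligands were mixed, with 7 of 15 lower, including the PD1 ligand gene Pdcd1lg2 (−1.90), and 4 higher, including H60b (0.90) and Ulbp1 (0.71), which encode ligands of NKG2D, and with background subtracted 5 were lower and 3 higher.

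Markers of other cell types moved in the same comparison. Of 12 macrophage genes 11 fell, and their summed level was 3342 to 3377 with anti-B7-H3 and 1574 to 1585 with the combination. All 8 fibroblast genes fell, from 8199 to 8373 down to 5026 to 5094. All 5 B cell genes tested and 5 of 6 plasma cell genes fell, as did 2 of 7 endothelial genes, while 2 of 4 melanocyte genes tested rose and 1 fell. Dendritic cell genes fell in 4 of 8 cases and neutrophil genes in 3 of 3, and 0 of 6 mast cell and basophil genes were called. With background subtracted, 10 macrophage, 8 fibroblast, 3 B cell, 5 plasma cell, 4 dendritic cell, 2 neutrophil and 2 endothelial genes fell. Among melanocyte markers, Tyrp1 and Dct were at 0 in anti-B7-H3 tumours, and the summed level of the list was lowest there. No macrophage or fibroblast marker was at 0. The part of these markers in the results for T and natural killer cell genes was not tested.

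Against isotype control, anti-B7-H3 tumours had more of most of these genes beyond background, and markers of some other cell types rose too. Levels of 36 of 44 members lay wholly above those of isotype control and 1 below, where 52.5% of all genes lay above and 13.9% below. On the deposited counts, with background left in, edgeR called 16 of 43 members higher (30.8% of all genes) and 6 lower (33.3%), with a median log2 fold change of 0.43 against −0.04 over all genes. With background subtracted, 28 of 42 were higher (31.1%) and 2 lower (22.0%). Gzma (log2 fold change 3.55, SE 0.357, adjusted p = 5.87e-14), Trbc2 (3.45), Cd3e (2.04), Il2rb (1.88) and Gzmb (1.75) rose on the deposited counts. In isotype control tumours Gzma (8 reads, 16.1 expected), Trbc2 (4 reads), Cd3e (7 reads, 11.7 expected) and Gzmb (14 reads, 15.3 expected) held fewer reads than background predicts. Their fold changes are therefore against background and not against a level of the gene. Il2rb (45 reads, 33.4 expected) did not stand above background there either. All 5 genes also passed with background subtracted, where the size of the fold change depends on the prior count. Lck (0.73), Havcr2 (1.16) and Klrk1 (1.37) rose as well, but did not pass without isotype control replicate 3 (adjusted p = 0.0711), 1 (0.195) and 2 (0.121) respectively. In isotype control tumours Havcr2 (14 reads, 17.4 expected) and Klrk1 (8, 14.4) also held fewer reads than background predicts. Lck (39, 32.2) did not stand above it. Havcr2 had a fold change of 0.66 without isotype control replicate 1 and 1.80 without replicate 3. On the deposited counts 12 of 12 macrophage genes (median log2 fold change 2.82), 8 of 8 fibroblast genes (1.53) and 4 of 6 plasma cell genes (1.53) also rose, and with background subtracted 12, 8 and 5 did. Melanocyte genes fell in 3 of 4 cases and mast cell and basophil genes in 3 of 6, with 0 higher. Endothelial (3 higher, 2 lower), dendritic cell (4 and 2), B cell (2 and 1) and neutrophil genes (1 and 1) were mixed. With background subtracted 2 of 3 melanocyte genes fell and 7 of 7 endothelial genes rose, while mast cell and basophil genes had 1 higher and 1 lower. The summed macrophage level was 453 to 491 with isotype control. The part of these markers in the members' rise was not tested.

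The 6 members called lower with anti-B7-H3 on the deposited counts were Cd6 (−1.63), Cd8b1 (−1.75), Bcl11b (−1.47), Tbx21 (−1.41), Klrb1c (−1.04) and Prf1 (−0.70). With background subtracted only Cd6 and Cd8b1 were called, and Tbx21 changed sign to 0.29 (adjusted p = 0.80). Klrb1c and Prf1 did not pass without anti-B7-H3 replicate 3 (0.0748 and 0.0652). Cd4 (0.08, adjusted p = 0.819) and Pdcd1 (0.68, adjusted p = 0.313) did not pass on the deposited counts, and Pdcd1 passed with background subtracted (0.0173). Cd4 changed sign to −0.30 with scaling over genes well above background and to −0.03 without isotype control replicate 2. With background subtracted Cd4 was higher by 1.11 (adjusted p = 0.0522) and, with that scaling added, by 1.37 (0.0147), and its levels beyond background did not overlap between the groups.

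With anti-PD1 set against isotype control, the number of members called and their median fold change depended on how background was treated. On the deposited counts 20 of 43 members were called lower (20.9% of all genes) and 0 higher (17.5%), with a median of −1.13 against −0.04, and 23 had an unadjusted p under 0.05. Cd3g (−2.46), Cd8a (−2.22), Cd8b1 (−2.05), Cd6 (−1.82), Cd4 (−1.69), Klrb1c (−1.63), Gzmb (−1.39) and Lck (−1.36) were among them. Background per kb was itself higher in isotype control libraries. The filter on low counts ran over all 12 libraries. In a fit of only the 2 groups compared 14 members passed it and 9 were lower, so the rest of the 43 passed only with the other groups included. With background subtracted, 4 of 42 were lower (9.02%: Cd4, Cd6, Cd8b1 and Klrb1c) and 0 higher (12.9%), and 9 had an unadjusted p under 0.05. The median was then 0.04 against 0.13 over all genes. Levels of 13 of 44 members lay wholly above isotype control and 5 below, where 35.7% and 7.66% of all genes did. Some of the 13 were at background in both groups. Icos (means −0.682 and −2.38) and Cd96 (−0.0896 and −2.19) lay wholly above with means below 0 in both. With 0 reads, Icos had a level of −0.884 in anti-PD1 replicate 2 and −4.50 in isotype control replicate 2. On the deposited counts it was called lower (−2.89). Cd3e (−0.83, adjusted p = 0.370) and Lag3 (−0.48, adjusted p = 0.154) did not pass on the deposited counts, and both changed sign without passing once background was subtracted. Without isotype control replicate 1, Cd8a did not pass (−1.69, adjusted p = 0.128) and Lag3 did (−0.78, 0.0316). Gzmb did not pass without isotype control replicate 1 (0.131) or 2 (0.328) or anti-PD1 replicate 1 (0.102) or 2 (0.0868).

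The combination was compared with isotype control. Levels of 28 of 44 members lay wholly above and 2 below, where 47.9% and 11.4% of all genes did. On the deposited counts Trbc2 (2.51, SE 0.653, adjusted p = 0.00119), Gzma (1.62), Trac (1.42) and Havcr2 (0.99) were called higher (4 of 43, 27.8% of all genes) and 13 lower (29.5%), with a median of −0.42 against −0.01. In isotype control tumours Trbc2 (4 reads, 10.75 expected), Gzma (8, 16.1), Trac (6, 8.5) and Havcr2 (14, 17.4) held fewer reads than background predicts. The fold changes of these 4 genes are thus against background and not against a level of the gene. With background subtracted 11 of 42 were higher (24.6%) and 3 lower (16.3%). Eomes was called lower on the deposited counts (−2.17) and changed sign with background subtracted (adjusted p = 0.0744), while Cd8b1 was called lower under both (−2.39 on the deposited counts). The calls of 3 of the 4 higher genes rested on single libraries. Gzma did not pass without isotype control replicate 3 (0.0543), Trac without replicate 1 (0.0952) or 2 (0.107), and Havcr2 without replicate 1 (0.368) or 2 (0.116) or combination replicate 1 (0.0568). Trbc2 passed whichever library was left out, with 3.92 without isotype control replicate 2. The comparisons with isotype control share its 3 libraries.

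Adding anti-B7-H3 to anti-PD1 was followed by comparing the combination with anti-PD1. Levels of 28 of 44 members lay wholly above and 0 below, where 32.8% and 18.3% of all genes did. On the deposited counts 15 of 43 rose (23.1% of all genes) and 0 fell (23.4%), with a median of 0.40 against a median of 0 over all genes, and with background subtracted 21 of 42 rose (19.3%) and 0 fell (17.2%). Gzma (3.27, SE 0.421, adjusted p = 7.1e-10), Trbc2 (3.19), Cd3g (2.41), Nkg7 (2.35), Cd8a (2.04), Cd3e (1.57), Gzmb (1.49) and Il2rb (1.47, SE 0.197, adjusted p = 2.41e-09) rose. In anti-PD1 tumours Gzma (7 reads, 12.2 expected), Trbc2 (7, 8.14), Cd3g (8, 8.56) and Cd8a (7, 11.6) held fewer reads than background predicts. Nkg7 (8, 7.8), Cd3e (11, 8.89) and Gzmb (15, 11.6) did not stand above it. Fold changes of these genes are thus against background and not against a level of the gene. Trbc2 had 7.6 without anti-PD1 replicate 2, and Cd3e did not pass without anti-PD1 replicate 1 (1.09, 0.0631). Pdcd1 (1.5, adjusted p = 0.0173) did not pass without anti-PD1 replicate 2 (0.129) or 3 (0.0733) or combination replicate 3 (0.0940). Its reads in anti-PD1 tumours (9, with 13.5 expected) were also fewer than background predicts. Havcr2 (0.69, adjusted p = 0.0473) did not pass without any 1 of 6 libraries, with adjusted p from 0.0572 to 0.373. No natural killer receptor of the 4 passed in this comparison on either count. Macrophage genes rose in 12 of 12 cases (median log2 fold change 1.41) and plasma cell genes in 4 of 6 (0.58), against 12 and 3 with background subtracted. Their summed levels were 567 to 587 and 65.8 to 68.6 with anti-PD1, and 1574 to 1585 and 101 to 108 with the combination. On the deposited counts melanocyte genes fell in 3 of 4 cases and mast cell and basophil genes in 4 of 6, with 0 higher. Fibroblast (3 of 8) and endothelial genes (2 of 7) had some higher and 0 lower. B cell (2 higher, 1 lower), dendritic cell (2 and 2) and neutrophil genes (1 and 1) were mixed. The part of these markers in the members' rise was not tested.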

How the data were processed

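Whole-tumour RNA of 12 libraries was ribosome-depleted and sequenced, per the labels' protocols. The build is GRCm38 and FastQC (0.11.8) was used, per the submitters' processing notes. The program that assigned reads and its strand setting are not given in the sources used here. The values used are the estimated counts per transcript that the authors deposited, unscaled per the file headers. Of 58083 transcripts, 57473 were matched to GENCODE M21, and 87.3% of lengths were multiples of 3, so lengths are coding lengths. Counts were summed over 22195 genes and rounded, with totals from 3593110 to 21298142 reads per library. Precision follows from the reads of each gene.

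Background was the Olfr reads per kb times coding length. Levels used TMM over 1686 genes with at least 10 reads and 5 times background in every library. edgeR 4.0.16 (R 4.3.3, robust quasi-likelihood F test, TMM, filter by expression, 12 libraries in 1 fit) tested 13478 genes, and 0.05 was the threshold for Benjamini-Hochberg adjusted p-values. Every adjusted p printed comes from it unless another setting is named. The script was tested on simulated data. Alternatives included DESeq2 1.42.0, no filter, leaving out each library and a replicate block. Subtracted counts were floored so that none was negative, unlike the levels, then rounded and tested in the same way. The error of the background estimate does not enter their p-values. All 44 members could be named, and of each pathway list the 2 most changed genes called in each direction whose groups did not overlap. Some genes that this rule names are not reported here. The members whose fold changes are printed were picked from the 44 after values were seen. The members and lists were chosen with earlier results of these data known. Promoters come from RefSeq (GRCm38.p6), where 31 of 44 members matched. Replicate numbers were not used to pair libraries in the main fit.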

Additional observations from a re-analysis of the deposited data

Results flagged for a closer look

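The effect of anti-PD1 given with anti-B7-H3 (combination against anti-B7-H3) differed from its effect alone (anti-PD1 against isotype control) for 2 of 43 members, by the interaction term of edgeR's quasi-likelihood test on the deposited counts. Over all 13478 genes tested 36.4% were called by this term, so the members' share of 4.65% was below that of all genes, and 6 members had an unadjusted p under 0.05. For Cd6, a surface receptor of T cells, the difference was 1.31 on the log2 scale (SE 0.382, adjusted p = 0.00459), between −0.51 with anti-B7-H3 and −1.82 alone. For Tnfrsf18 the difference was −1.31 (SE 0.426, adjusted p = 0.0116), between −1.37 with anti-B7-H3 and −0.06 alone. Background is left in these counts. In isotype control libraries 41.1 of the 74 reads of Cd6 and 19.5 of the 22 reads of Tnfrsf18 are the number expected from background, and its part in either difference was not tested. Groups of 3 libraries were not tested for single outlying values.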

How the results depend on the processing

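The fall of members between anti-B7-H3 and the combination stayed within 1.5 times of 28 under every alternative run, from 20 to 30, with 0 members higher throughout, and 22 to 30 when single libraries were left out. Members higher with the combination than with anti-PD1 numbered 12 to 22. Comparisons with isotype control moved most. Subtracting background gave 28 members higher and 2 lower for anti-B7-H3, 4 lower for anti-PD1, and 11 higher and 3 lower for the combination against isotype control, with 2840 genes called for anti-PD1 in all. Subtraction combined with scaling over genes well above background, a combination chosen after seeing the data, gave 30 and 2, 3, and 14 and 3, with 3192 genes called for anti-PD1. That scaling alone gave 9 members higher for anti-B7-H3 and 2 for the combination against isotype control, and 1 lower for the combination against anti-PD1. It moved the median of all genes to −0.41, −0.37 and −0.47 for anti-B7-H3, anti-PD1 and the combination against isotype control, and to −0.13 against anti-PD1. Genes called higher and lower were then 2463 and 6338 (4148 and 4493 otherwise), 605 and 5146 (2353 and 2811), 1471 and 6568 (3745 and 3982), and 2277 and 4050 (3120 and 3151). Against anti-B7-H3 they were 2073 and 3228 (2675 and 2579). DESeq2's Wald test gave 2 members higher for the combination against isotype control. A fit of only 2 groups gave 9 lower for anti-PD1, with 14 members tested. The cause of these moves was not tested.

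Without the filter 16711, 10021, 15865 and 11406 genes were called for anti-B7-H3, anti-PD1 and the combination against isotype control and the combination against anti-PD1, from more genes tested, and leaving satellite-like genes out gave 8723 for anti-PD1. Counting changes of 2-fold or more left 4814, 2166, 3815, 1450 (combination against anti-B7-H3) and 2131. Leaving out single libraries gave 2 to 5 members higher for the combination against isotype control (2 without isotype control replicate 1) and 0 to 1 lower against anti-PD1 (1 without anti-PD1 replicate 3). Signs changed with background subtracted, and with the scaling added, for Tbx21 with anti-B7-H3 (0.29 and 0.54), Cd3e (3.77 and 3.69) and Lag3 (0.08 and 0.16) with anti-PD1 and Eomes with the combination (5.47 and 5.45), all against isotype control. Cd4 with anti-B7-H3 became −0.30 with the scaling alone and ran from −0.03 to 0.22 when single libraries were left out. Fold changes of counts near 0 depend on the prior count.

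With a replicate block the members called higher and lower were 15 and 6, 0 and 20, 4 and 13, 0 and 28, and 15 and 0 for the comparisons with isotype control of anti-B7-H3, of anti-PD1 and of both antibodies, and for the combination set against anti-B7-H3 and against anti-PD1. Libraries with the same number correlated by −0.031 to 0.050 across genes, and 6 of 12 correlated best with their own number. Those with different numbers correlated by −0.061 to 0.068, so these values do not settle whether the numbers pair libraries.

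The summed level was 185 (isotype control) and 63.5 (anti-PD1) with no background subtracted, 152 (anti-B7-H3) and 69.5 (combination) with TMM over all genes that pass the filter, and 517, 246 and 69.5 (anti-B7-H3, combination and anti-PD1) per 1000000 reads outside satellites and background, an alternative added after seeing the data. The lowest sums under such alternatives were −5.58 for isotype control, below 0 unlike the main value of 5.89, and 20.5 for anti-PD1. Leaving out single libraries gave −1.75 to 14.2 for isotype control, 24.4 to 29.5 for anti-PD1, 79.7 to 82.8 for the combination and 187 to 190 for anti-B7-H3. In isotype control and anti-PD1 tumours most members lay at background, so small differences were not detectable at this depth.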

Other observations

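Ratios of levels within a library do not depend on its scaling. These pairs were chosen after their values were seen, and no test was made of them. The ratio of Cd8a to Cd4 was 0.626, 0.897 and 0.910 in anti-B7-H3 and 0.959, 1.40 and 1.28 in combination libraries. The ratio of Foxp3 to Cd4 was 0.378, 0.354 and 0.339 against 0.405, 0.735 and 0.833. The ratio of Havcr2 to Cd3e was 0.727, 0.567 and 0.910 against 2.17, 1.14 and 1.82. The ratio of Pdcd1 to Cd3e was 0.232, 0.268 and 0.273 against 0.364, 0.404 and 0.738, and that of Trbc2 to Trbc1 was 1.93, 1.77 and 2.20 against 4.22, 5.66 and 2.79. In each of these 5 pairs the 3 combination values lie above the 3 anti-B7-H3 values, and the denominators are among the members that fell. The ratio of Gzma to Cd3e went the other way, at 2.37, 2.29 and 2.46 against 1.91, 0.840 and 2.22. The ratio of Gzma to Gzmb overlapped between the groups, at 2.39, 2.06 and 1.41 against 1.63, 1.17 and 1.88, and so did those of Ncr1, Il2rb and Lag3 to Cd3e.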
